A study of Schizosaccharomyces pombe with 9 samples.

Results

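Data on 3 fission yeast genes linked to phosphate, but outside the PHO regulon in its usual sense, come from 9 libraries of poly(A)+ RNA. They are SPBPB2B2.06c, annotated in the authors' tables as a predicted extracellular 5'-nucleotidase of the human NT5E family, ecl3 (SPBC8E4.12c), annotated as an extender of chronological lifespan, and SPBC1683.01, annotated as a predicted inorganic phosphate transmembrane transporter and named pho841 in RefSeq. They were picked by systematic ID, 3 of 6986 features counted, because their levels in the suppressor mutants STF9 and STF6 were far above those in the parental strain. Their contrasts with the parent are therefore given as values, with no test, while the contrast between the suppressors was not used to pick them and is tested.

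Fission yeast cells that lack phosphate make a secreted acid phosphatase (Pho1), which frees phosphate from organic esters outside the cell, and the transporters Pho84 for phosphate and Tgp1 for glycerophosphodiesters. The transcription factor Pho7 activates these genes, and transcription of long non-coding RNAs upstream of them interferes with their expression in cells that have phosphate. A 5'-nucleotidase outside the cell would likewise free phosphate, from nucleoside monophosphates. Ecl3 belongs to a family of small proteins, with Ecl1 and Ecl2, that prolong the survival of non-dividing cells when overproduced.

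The groups were STF9, STF6 and their parent rpb1-CTD-T4A29 (T4A29 below), each with 3 libraries. Per the design text the 2 mutants are suppressors and T4A29 is the parental control. The parent carries the Thr4 mutation in the carboxy-terminal domain of RNA polymerase II, which per the title hyper-represses the PHO regulon. Each group is 1 strain by its strain number, the labels do not name the genes mutated in STF9 and STF6, and no wild-type library was analysed here. All cultures were in log phase at 30 °C in YES, a rich medium. The labels do not say whether replicates were separate cultures, so the errors measure only the spread between these libraries, which may be technical.

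Total counts ranged from 15374453 to 22909747 per library. The T4A29 libraries differed more among themselves than the mutant libraries did. The chi-square of counts per gene between 2 libraries of a group was 24.4 to 91.6 in T4A29, against 3.19 to 9.70 in STF9 and 6.25 to 8.63 in STF6, and the 2 highest values both involved T4A29 replicate 2. That library also had the highest mean level over 10 heat shock and chaperone genes, 9.71 log2 CPM, against 9.58 and 9.39 in T4A29 replicates 1 and 3. The mutant libraries lay at 8.55 to 8.62 in STF9 and 8.59 to 8.65 in STF6. Levels below are in CPM (counts divided by the TMM-adjusted library size), and values of different genes are not per length and are not compared as levels. The TMM factor of T4A29 replicate 2 was 0.859, against 0.978 and 1.09 in replicates 1 and 3. This scaling raises the levels of replicate 2 relative to theirs, and its excesses given below include that.

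SPBPB2B2.06c was nearly silent in the parent and abundant in both suppressors. Its level was 139, 115 and 121 CPM in STF9, 245, 184 and 208 CPM in STF6, and 2.70, 8.04 and 2.09 CPM in T4A29 replicates 1 to 3. The raw counts behind these were 2689, 2051 and 2349 in STF9, 5274, 4229 and 3332 in STF6, and 55, 140 and 50 in T4A29. No mutant library came near a parental one, since the lowest STF9 library was still 14.3-fold above the highest T4A29 library, and the lowest STF6 library 22.9-fold above it. The log2 fold was 4.93 ± 0.32 (SE) in STF9 and 5.70 ± 0.32 in STF6 over T4A29, or 30.5-fold and 51.9-fold. It ranked 2 of the 5951 genes tested in each contrast, after pho1.

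The size of that fold depended on T4A29 replicate 2. SPBPB2B2.06c was 3.36-fold higher there than the mean of the other T4A29 libraries, an excess that only 4 of the 5951 genes tested, itself included, matched or passed. Without replicate 2 the log2 fold was 5.72 in STF9 and 6.48 in STF6. The heat shock genes given above were also highest in that library, and their part in this excess was not tested. No source used here says how multiply matching reads were counted. The counts of SPBPB2B2.06c are therefore given beside those of its relative SPAC1039.02, another predicted extracellular 5'-nucleotidase. SPBPB2B2.06c had 7.15%, 5.63% and 5.81% as many counts as SPAC1039.02 in the STF9 libraries and 12.2%, 8.04% and 10.1% in the STF6 libraries, against 0.255%, 0.590% and 0.189% in the T4A29 libraries. The ratio was thus higher in every mutant library than in any T4A29 library. It follows the fold on which SPBPB2B2.06c was picked and does not measure read sharing, which was not tested.

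The pattern of ecl3 was alike, at lower counts. Its level was 64.8, 60.8 and 60.7 CPM in STF9, 91.9, 83.5 and 79.2 CPM in STF6, and 1.37, 3.10 and 1.97 CPM in T4A29. In T4A29 these levels rested on 28, 54 and 47 counts. The log2 fold over T4A29 was 4.88 ± 0.18 (SE) in STF9 and 5.33 ± 0.18 in STF6, or 29.4-fold and 40.2-fold, which ranked 3 of 5951 in each. T4A29 replicate 2 was again highest, 1.86-fold above the mean of the other 2, and without it the log2 folds were 5.20 in STF9 and 5.65 in STF6. The groups did not overlap, and the spread within the mutants was narrow, with a coefficient of variation of 3.80% in STF9 and 7.63% in STF6, against 40.9% in T4A29.

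SPBC1683.01 differed from the other two in having a clear level in the parent. It stood at 216, 226 and 207 CPM in STF9, 263, 251 and 251 CPM in STF6, and 50.9, 84.4 and 48.2 CPM in T4A29. The log2 fold over T4A29 was 1.83 ± 0.16 (SE) in STF9 and 2.1 ± 0.16 in STF6, or 3.55-fold and 4.18-fold, at ranks 31 and 22 of 5951. T4A29 replicate 2 was 1.70-fold above the mean of the other 2 libraries, and the log2 folds without it were 2.13 in STF9 and 2.37 in STF6. Even so the lowest STF9 library was 2.45-fold above that replicate, and the lowest STF6 library 2.97-fold above it. For comparison, 28.7% of all genes tested had every STF9 library above every T4A29 library, and 25.7% had every STF6 library above. Since the genes were picked on these contrasts, nothing is read from their standing against those shares.

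**Figure D1:**
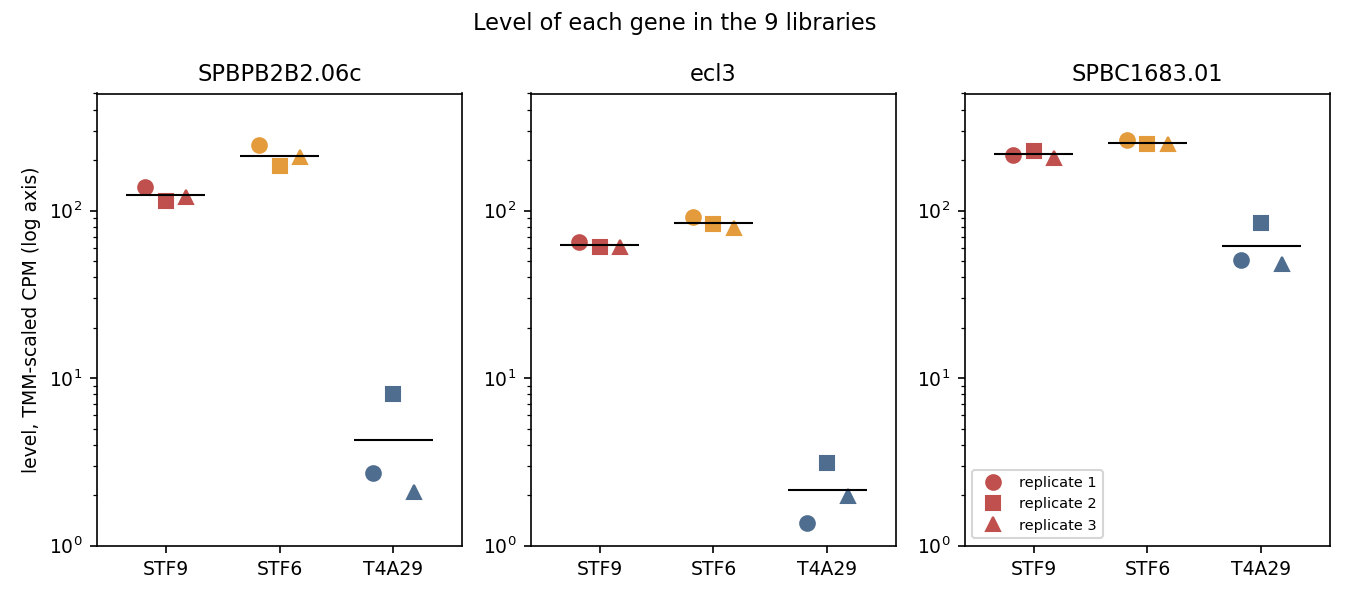
Level of SPBPB2B2.06c, ecl3 and SPBC1683.01 in each library (TMM-scaled CPM, log axis), with STF9, STF6 and T4A29 (rpb1-CTD-T4A29) from left to right, symbols for replicates and lines for group means. All mutant libraries lie above all T4A29 libraries, T4A29 replicate 2 is the highest of its group in each panel at 8.04, 3.10 and 84.4 CPM, and STF9 lies below STF6 throughout.

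The authors' deposited tables, fitted with DESeq2, gave log2 folds of 4.81 (SPBPB2B2.06c), 4.83 (ecl3) and 1.77 (SPBC1683.01) for STF9 against T4A29. For STF6 against T4A29 the authors' deposited table gave 5.59 (SPBPB2B2.06c), 5.29 (ecl3) and 2.01 (SPBC1683.01).

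The profiles of the 3 genes differed in the size of the step from T4A29, on which the genes were picked. Each gene's log2 CPM was centred on its mean over the 9 libraries, and the root mean square distance between profiles was taken over 5390 other genes with a mean of at least 1 log2 CPM. The 4 genes nearest to SPBPB2B2.06c were ecl3 (0.38), pho1 (0.46), tgp1 (0.54) and pho84 (0.79), and the fifth was gpd3, a glyceraldehyde 3-phosphate dehydrogenase gene (1.40). For ecl3 they were tgp1 (0.31), pho1 (0.37), SPBPB2B2.06c (0.38) and pho84 (0.51), followed by guf1, a mitochondrial elongation factor gene (1.15). These are distances in log2 units, and the 4 nearest of each gene stood apart from the fifth. SPBC1683.01 had other genes next to it. They were lid2-antisense-1 (0.10), an antisense RNA, isp4 (0.19), an oligopeptide transporter gene, pof9-antisense-1 (0.21), SPBC25B2.08 (0.27), annotated as a species-specific protein, and oga1 (0.28), a Stm1 homolog. Its distance to pho84, the most alike of the PHO genes, was 1.03. The whole 9 libraries enter this measure, mostly the step between parent and mutants, on which the 3 genes were picked. It therefore describes likeness of size and says nothing of shared control.

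**Figure D2:**
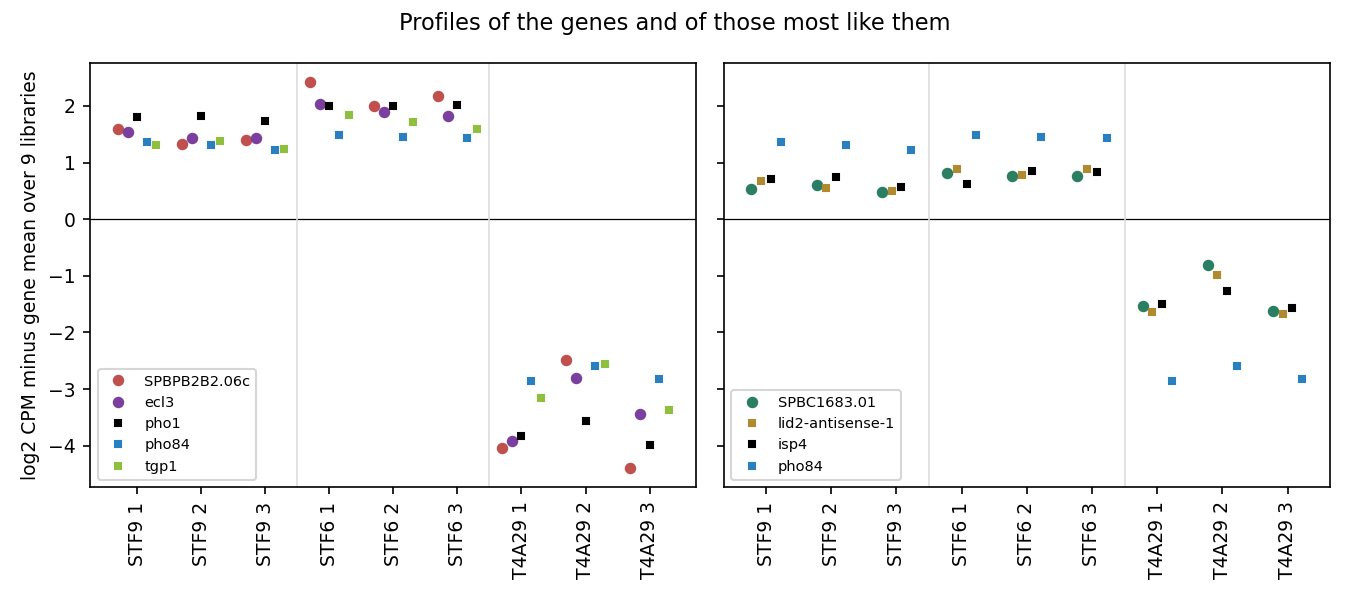
Log2 CPM minus the gene's own mean over the 9 libraries, by library. In the left panel SPBPB2B2.06c and ecl3 lie with pho1, pho84 and tgp1. In the right panel SPBC1683.01 lies with lid2-antisense-1 (distance 0.10) and isp4 (0.19), and pho84 makes a larger step (distance 1.03).

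Counts of the 3 genes relative to pho84 within a library give a ratio that needs no scaling between libraries. Between mutants and parent it sets their folds over T4A29, on which they were picked, beside that of pho84. It is therefore given as description only. SPBC1683.01 had 10.0%, 10.9% and 10.6% as many counts as pho84 in STF9 and 11.1%, 11.0% and 11.1% in STF6, against 44.2%, 61.1% and 40.7% in T4A29. For ecl3 the shares were 3.02%, 2.94% and 3.10% in STF9 and 3.90%, 3.64% and 3.50% in STF6, against 1.19%, 2.24% and 1.66% in T4A29. SPBPB2B2.06c had 6.45%, 5.54% and 6.18% in STF9 and 10.4%, 8.03% and 9.19% in STF6, against 2.34%, 5.82% and 1.77% in T4A29. So the counts of SPBC1683.01 were smaller relative to those of pho84 in every mutant library than in any parental one, and those of ecl3 larger. For SPBPB2B2.06c the ratio in T4A29 replicate 2 lay within the range of STF9.

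The suppressors were then compared with each other, a contrast the choice of genes did not use. The mean level of each gene was lower in STF9, and every STF9 library was below every STF6 library, as it was in 7.36% of all genes tested. SPBPB2B2.06c averaged 125 ± 12.4 CPM in STF9 and 212 ± 30.9 CPM in STF6 (SD, n = 3 each), a log2 fold of −0.77 ± 0.24 (SE; 95% interval −1.29 to −0.25). ecl3 averaged 62.1 ± 2.36 CPM in STF9 and 84.9 ± 6.47 CPM in STF6, a log2 fold of −0.45 ± 0.14 (95% interval −0.75 to −0.16). SPBC1683.01 averaged 216 ± 9.78 CPM in STF9 and 255 ± 6.67 CPM in STF6, a log2 fold of −0.24 ± 0.16 (95% interval −0.58 to 0.10).

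None of the 3 passed edgeR's quasi-likelihood test fitted on all 9 libraries, with an adjusted p of 0.980 for each. The unadjusted p was 0.00700 for SPBPB2B2.06c, 0.00564 for ecl3 and 0.154 for SPBC1683.01. By that fit 0 of 5951 genes were called, 178 (2.99%) had an unadjusted p under 0.05, and DESeq2 on the same libraries called 1, the helicase gene tlh2. An exact two-sided permutation test of the log2 levels gave p = 0.1 for each gene, the smallest that 3 against 3 libraries allow.

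The outcome of that test changed with the libraries that set the spread. When only the 6 suppressor libraries were fitted, so that the wider spread of T4A29 did not enter, all 3 genes fell in STF9 relative to STF6 by edgeR's quasi-likelihood test. The adjusted p was 8.89e-06 for SPBPB2B2.06c (log2 fold −0.77 ± 0.08, SE), 9.82e-04 for ecl3 (−0.45 ± 0.07) and 0.0314 for SPBC1683.01 (−0.24 ± 0.05). In that fit 10 of 5870 genes (0.170%) were lower in STF9, these 3 among them, and 7 (0.119%) were higher. The other 7 lower genes were pho1 (−0.22 ± 0.04) and tgp1 (−0.40 ± 0.06) of the PHO regulon, the uracil-regulated genes urg1 (−0.60 ± 0.06) and urg2 (−0.51 ± 0.05), tlh2 (−2.61 ± 0.24), cox24, a mitochondrial RNA processing gene, and gfh1, a gamma tubulin complex gene. The third PHO gene, pho84, was at −0.16 ± 0.04 and did not pass (adjusted p = 0.128). With 1 suppressor library left out of that fit, SPBPB2B2.06c and ecl3 passed each time, the highest adjusted p being 0.0202 for ecl3 without STF6 replicate 2. SPBC1683.01 lost its call without STF6 replicate 1 or 2 or STF9 replicate 2 or 3, with adjusted p of 0.141, 0.110, 0.0891 and 0.170. The fit of 6 libraries was listed as an alternative and that of 9 as the main test.

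**Figure D3:**
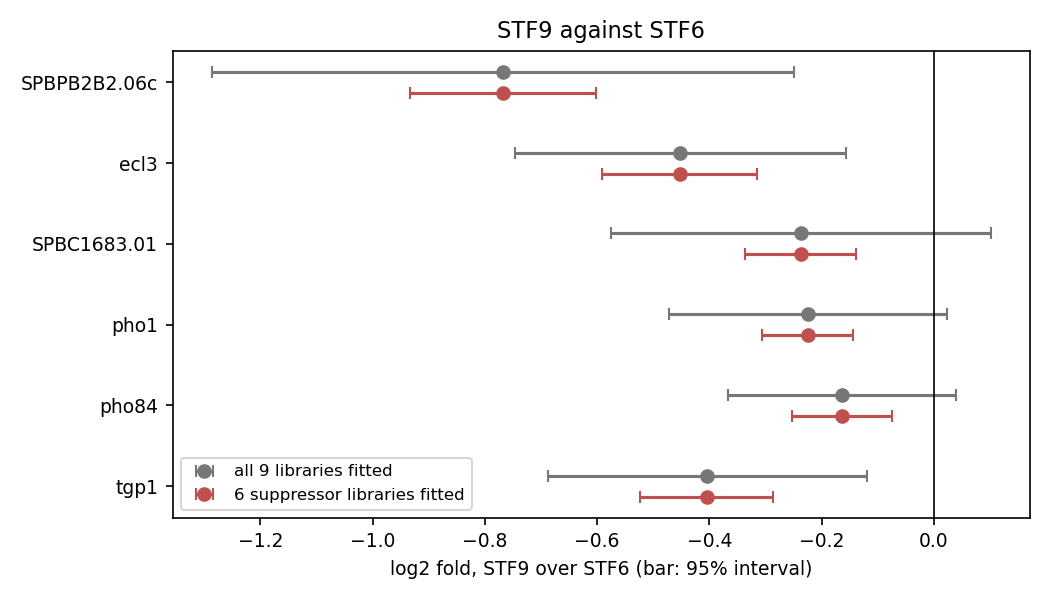
Log2 fold of STF9 over STF6 with its 95% interval for the 3 genes and the PHO genes, fitted on all 9 libraries (grey) or on the 6 suppressor libraries (red). The values are the same in both fits to within 0.01, from −0.77 for SPBPB2B2.06c to −0.16 for pho84, and the intervals are narrower when T4A29 does not set the spread.

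Relatives of each gene were taken by their annotation and not by their values, though the lists were chosen with earlier results of these data known. Of 4 other 5'-nucleotidase genes 2 rose in each suppressor and 2 did not pass, where 23.0% of all genes rose in STF9 and 19.2% in STF6. SPAC1039.02, of the same NT5E family as SPBPB2B2.06c, averaged 2018 ± 72.5 CPM in STF9 and 2123 ± 148 CPM in STF6, against 1177 ± 162 CPM in T4A29 (SD, n = 3 each). Its log2 fold was 0.78 ± 0.11 (SE, adjusted p = 1.93e-04) in STF9 and 0.85 ± 0.11 (adjusted p = 9.12e-05) in STF6. SPAC24B11.05, a predicted pyrimidine 5'-nucleotidase gene, rose by 0.41 ± 0.10 in STF9 and 0.60 ± 0.10 in STF6. The third member of the NT5E family, SPAC17G6.03, was at 0.14 ± 0.13 and 0.18 ± 0.13, and the IMP 5'-nucleotidase gene isn1 at −0.03 ± 0.09 and −0.01 ± 0.09, in STF9 and STF6 in that order.

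The ecl family moved in different directions. ecl1 fell to 13.8 ± 2.20 CPM in STF9 and 13.6 ± 0.220 CPM in STF6, against 31.8 ± 10.7 CPM in T4A29. Its log2 fold was −1.20 ± 0.20 (adjusted p = 6.71e-04) in STF9 and −1.22 ± 0.20 (adjusted p = 5.65e-04) in STF6. Like 43.9% of all genes tested it was highest within T4A29 in replicate 2, at 44.1 CPM, against 26.1 and 25.2 CPM in replicates 1 and 3, and all 6 mutant libraries lay below these. ecl2 rose slightly, by 0.28 ± 0.08 (adjusted p = 0.0184) in STF9 and 0.40 ± 0.08 (adjusted p = 0.00269) in STF6. The step of about 5 log2 units in ecl3 was larger than those of ecl1 and ecl2. Since ecl3 was picked for that step, nothing is read from the difference.

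Of 4 other phosphate transporter genes 3 rose and 1 fell in each suppressor, where 23.0% of all genes rose and 21.3% fell in STF9, and 19.2% rose and 19.2% fell in STF6. pho84 made the largest step of them, to 2057 ± 96.3 CPM in STF9 and 2304 ± 49.8 CPM in STF6, against 124 ± 12.4 CPM in T4A29. SPBC1703.13c, which encodes a predicted mitochondrial phosphate carrier, rose by 1.17 ± 0.10 in STF9 and 1.24 ± 0.10 in STF6. SPAC23D3.12, named pho842 in RefSeq, rose by 0.30 ± 0.08 and 0.34 ± 0.08. SPCC2H8.02, named pho843, fell, with log2 folds of −0.48 ± 0.09 in STF9 (adjusted p = 0.00185) and −0.55 ± 0.09 in STF6 (adjusted p = 8.41e-04). The transporter genes therefore differed in direction as well as size, with SPBC1683.01 between pho84 and pho842.

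**Figure D4:**
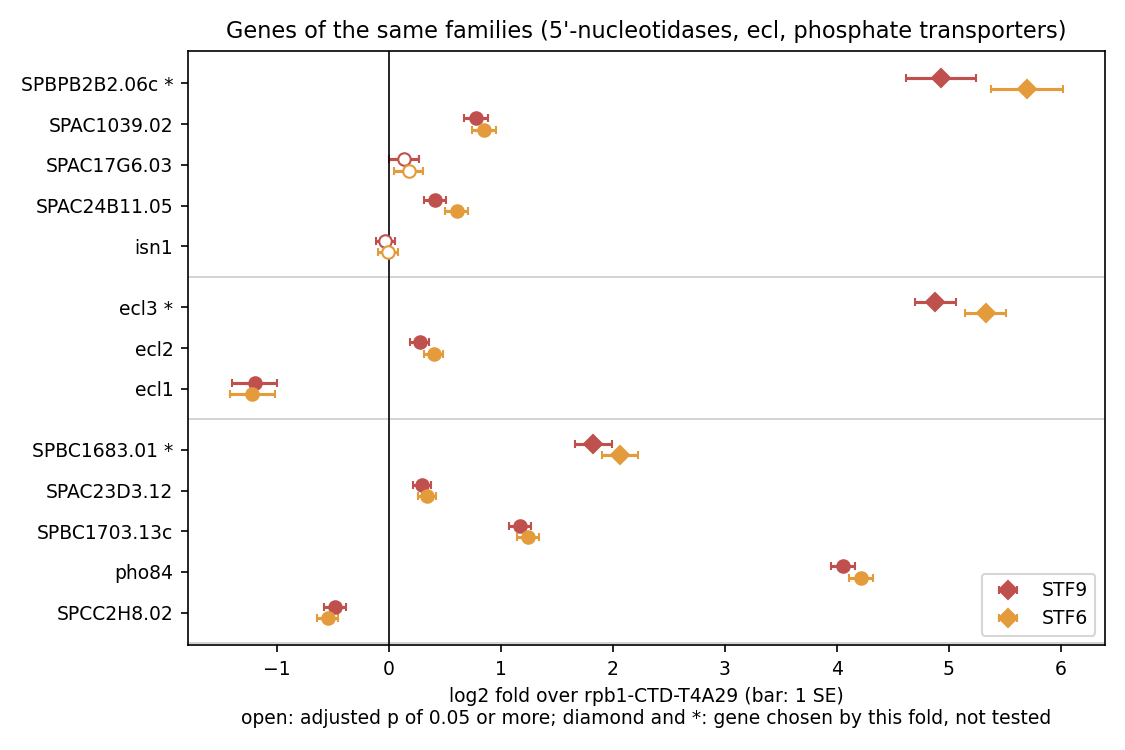
Log2 fold over T4A29 (bar, 1 SE) in STF9 and STF6 for the 3 genes (diamonds, marked with *) and the genes annotated to the same families. The 3 genes stand at 1.83 to 5.70, pho84 at 4.05 and 4.22, ecl1 at −1.20 and −1.22, and SPCC2H8.02 at −0.48 and −0.55, and the values of STF9 and STF6 lie side by side for each gene.

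A wider list held 14 genes of phosphate handling, of which 11 rose, 1 fell and 2 did not pass in each suppressor, against 23.0% of all genes that rose and 21.3% that fell in STF9 and 19.2% each in STF6. Their median log2 fold was 0.58 in STF9 and 0.69 in STF6, against 0.04 and 0.03 over all genes tested. Of the PHO genes, pho1 (5.57 and 5.79, STF9 first) lay above SPBPB2B2.06c and ecl3 in each suppressor, and tgp1 (4.34 and 4.74) below them. The genes of the vacuolar polyphosphate polymerase rose by less, vtc4 by 0.61 ± 0.08 in STF9 and 0.74 ± 0.08 in STF6, and nrf1 by 0.78 ± 0.07 and 0.93 ± 0.07. asp1, which encodes an inositol pyrophosphate kinase, rose by 1.11 ± 0.10 in STF9 and 1.02 ± 0.10 in STF6. pho7, which encodes the activator of PHO genes, was the 1 that fell (−0.64 ± 0.10 and −0.63 ± 0.10), and pho4, the thiamine-repressible acid phosphatase gene, and csk1 did not pass. Together with the relatives, 16 of 23 genes rose and 3 fell in each suppressor, to be read against the same shares of all genes. The 2 contrasts share the T4A29 libraries, so their like counts are not separate evidence.

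The surroundings of the 3 genes on chromosome II were read from the order of genes in RefSeq's annotation. The 3 nearest genes on either side that the files count under a current RefSeq name made 18, of which 12 had enough counts to test. SPBC8E4.02c, which RefSeq holds only as a synonym, is not among them and is given apart. RefSeq also holds nearby lncRNAs that the files do not count, so their levels are not known here. They lie on both sides of SPBPB2B2.06c, between ecl3 and pho1, and between SPBC1683.01 and mug14. Of the 12 tested neighbours, 2 rose and 5 fell in STF9, where 23.0% of all genes rose and 21.3% fell. In STF6 2 rose and 3 fell, where 19.2% rose and 19.2% fell. The 5 that fell in STF9 were 3 when T4A29 replicate 2 or any 1 STF9 library was left out. The 2 that rose were pho84 and pho1, which follow ecl3 in that order. In RefSeq the lncRNA prt2 lies between ecl3 and pho84, with ecl3 on one strand and prt2, pho84 and pho1 on the other. The feature SPBC8E4.02c, a name that RefSeq now lists as a synonym of prt2, was counted in the files as a species-specific protein gene. It was at 29.3 ± 1.34 CPM in STF9 and 30.0 ± 0.199 CPM in STF6, against 24.7 ± 7.67 CPM in T4A29, and did not pass (log2 fold 0.25 ± 0.17 and 0.29 ± 0.17, adjusted p = 0.235 and 0.190). How much of prt2 that feature covers is not known from the files. On the other side of ecl3 the non-coding RNAs SPNCRNA.117 and SPNCRNA.1694 did not pass either, and lay at or below 2.57 CPM in every library. Of 5 other tested genes that share the ID prefix SPBC8E4, 2 rose and 0 fell in each suppressor, to be read against the same shares of all genes. The 2 were pho84 and SPBC8E4.04, a predicted alditol oxidoreductase gene (1.53 ± 0.07 in STF9 and 1.60 ± 0.07 in STF6).

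None of the tested neighbours of SPBPB2B2.06c rose in either suppressor. Toward one side SPBPB2B2.05, the lncRNA gene nam3 and say1, a sterol deacetylase gene, fell in STF9, by 0.53, 1.65 and 0.98 on the log2 scale. In STF6 nam3 (−1.65 ± 0.18) and say1 (−0.70 ± 0.21) fell and SPBPB2B2.05 was at −0.08 ± 0.19. Toward the other side SPBPB2B2.07c had at most 1 count in any library, SPBPB2B2.08 was at 0.26 to 0.57 CPM, and pan5, a pantothenate synthesis gene, did not pass, at 47.9 CPM in STF9 and 43.1 CPM in STF6, against 40.1 CPM in T4A29. Of 8 tested genes that share the ID prefix SPBPB2B2, 0 rose and 4 fell in STF9, where 23.0% of all genes rose and 21.3% fell, and 2 rose and 3 fell in STF6, where 19.2% rose and 19.2% fell. The 2 that rose were SPBPB2B2.01, a predicted amino acid transporter gene (1.00 ± 0.37, adjusted p = 0.0492), and gal7 (0.51 ± 0.18). SPBPB2B2.01 averaged 9.17 ± 1.17 CPM in STF6, against 4.72 ± 3.75 CPM in T4A29 (SD), and the libraries of these groups overlapped.

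Next to SPBC1683.01, SPBC1683.02, a predicted adenine deaminase gene, was at 0.12 ± 0.15 in STF9 and 0.04 ± 0.15 in STF6. SPBC1683.03c, a transporter gene, fell (−0.58 ± 0.13 and −0.51 ± 0.13). On the other side the nearest counted gene, mug14, at or below 3.16 CPM in every library, fell in STF9 (−1.31 ± 0.49) and did not pass in STF6 (−0.88 ± 0.46). Of 12 genes with the prefix SPBC1683, 1 rose and 3 fell in each suppressor. Over all genes 23.0% rose and 21.3% fell in STF9, and 19.2% rose and 19.2% fell in STF6. The share of the 12 that fell was thus near that of all genes. Among the 3 that fell was frp1, a ferric reductase gene (−2.32 ± 0.21 in STF9 and −2.17 ± 0.20 in STF6). No feature named antisense to any of the 3 genes was counted.

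**Figure D5:**
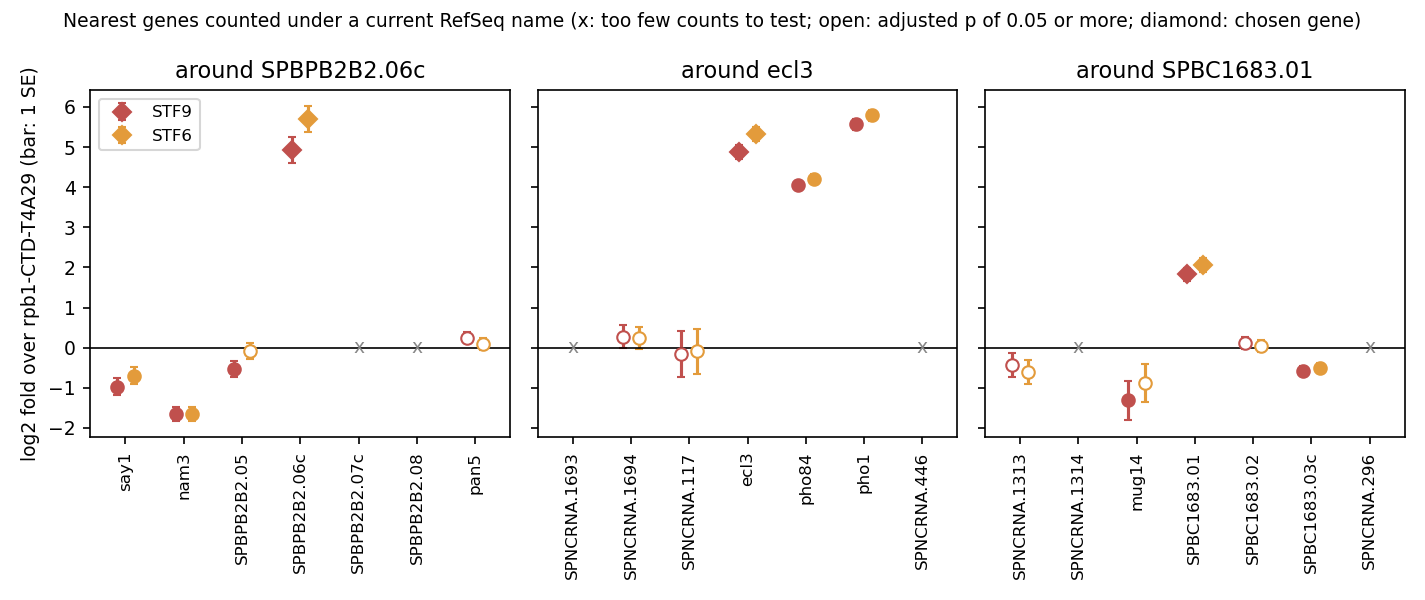
Log2 fold over T4A29 (bar, 1 SE) of the nearest genes counted under a current RefSeq name, in chromosomal order, with the chosen gene as a diamond in the middle, filled circles for adjusted p under 0.05, and x for too few counts. Beside ecl3, pho84 and pho1 stand at 4.05 to 5.79, and the tested neighbours of SPBPB2B2.06c and SPBC1683.01 stand at −1.65 to 0.25. The chosen genes were picked for their fold, so nothing is read from their height above these neighbours.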

How the data were processed

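Stranded paired-end libraries of poly(A)+ RNA were sequenced, 9 in all. The submitters' processing notes list DESeq2, HTSeq 0.10.0, SAMtools and HISAT2 2.1.0, with build ASM294v2. For annotation, strand setting and multiply matching reads the choice is "not given in the sources used here". From these the authors deposited raw counts per gene, and, per the file headers, tables with log2 fold changes, Wald scores, p-values and mean normalized counts (a signal), of which only the log2 folds are used as results. In those tables the overall mean of SPBPB2B2.06c (1179) does not equal the average of the group means, so other libraries may have entered the authors' fit.

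One all-zero duplicate line was dropped from 6987. Genes passing filterByExpr (5951) were fitted in R 4.3.3 with edgeR 4.0.16 (TMM, glmQLFit on all 9 libraries, group as the only term, glmQLFTest, Benjamini-Hochberg over all genes tested). "Rose" and "fell" mean adjusted p under 0.05. Other settings tried were scaling by median ratio or by library size alone, other filters on low counts, DESeq2 1.42.0, fits of 6 libraries, the replicate number as a block, and each library left out. Fits with a library left out were read only for the contrasts that hold its group. Profiles used log2 CPM with a prior count of 2. The scripts were tested on simulated counts. Figures were drawn with matplotlib 3.10.9.

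The members and lists were chosen with earlier results of these data known. Named genes are the members, their relatives by annotation, phosphate genes (those passing the test within the 4 smallest p of a list), neighbours, the 5 nearest profiles and 10 stress markers. The genes vtc4, pho7, pho4, csk1, SPBPB2B2.01, gal7, frp1 and SPBC8E4.04 were named after their values were seen. So were the relatives that did not pass and the genes called between STF9 and STF6. RefSeq's annotation (ASM294v3, 5941 of 5951 tested genes matched) gave only names, chromosome, strand and gene order, and its build differs from that of the counts. A planned look at promoter and protein sequences was not made, since those sequences were not at hand.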

Additional observations from a re-analysis of the deposited data

How the results depend on the processing

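The log2 folds of the 3 genes over T4A29 kept their direction under every alternative run. The value that moved beyond the spread between libraries was that of SPBPB2B2.06c, without T4A29 replicate 2. Its range with 1 library left out was 4.57 to 5.72 in STF9 and 5.34 to 6.48 in STF6. For STF9 against STF6 the log2 folds with 1 suppressor library left out ranged from −0.86 to −0.65 for SPBPB2B2.06c, −0.50 to −0.39 for ecl3 and −0.27 to −0.20 for SPBC1683.01. With only the 6 suppressor libraries and STF9 replicate 1, 2 or 3 left out they were −0.85, −0.71 and −0.74 for SPBPB2B2.06c and −0.49, −0.43 and −0.43 for ecl3. Fits without a T4A29 library were not read for STF9 against STF6. Of the other alternatives listed at the start, the 3 genes passed the test only in the fit of the 6 suppressor libraries (−0.77, −0.45 and −0.24). Variations of that fit, chosen after seeing the data, gave −0.77, −0.46 and −0.24 with median-ratio scaling, −0.78, −0.46 and −0.25 with library size alone, −0.77, −0.46 and −0.24 with DESeq2, and −0.76, −0.45 and −0.24 with the replicate block, all passing. The neighbours lower in STF9 numbered 3 with library size alone and in the fit of 6 libraries, and 3 to 5 with 1 library left out (3 without T4A29 replicate 2 or any STF9 library). Whether the replicate numbers pair the libraries was not settled. Correlations across genes ran from −0.31 to 0.38 for same-numbered libraries of different groups, and from −0.36 to 0.39 for the others. T4A29 replicate 1 was most like STF9 replicate 3 (0.32), but T4A29 replicate 3 was most like STF6 replicate 3 (0.38). In the fit of all 9 libraries the replicate block gave −0.77, −0.45 and −0.24 for STF9 against STF6, changed no call of the 3 genes, and moved the calls in STF9 to 1504 higher and 1299 lower, against 1368 and 1265. Between STF9 and STF6 the block in the fit of 6 libraries moved the calls to 229 higher and 78 lower, against 7 and 10. Over all genes, calls in STF9 were 807 higher without STF9 replicate 2, and 843 higher and 814 lower without replicate 3. Calls higher in STF6 were 753, 754 and 745 without STF6 replicate 1, 2 or 3, against 1141. Low counts limit SPBPB2B2.06c and ecl3 in T4A29, at 50 to 140 and 28 to 54 counts per library.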
